A study of Mus musculus with 6 samples.

Results

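The receptors for activin, bone morphogenetic protein (BMP) and transforming growth factor beta (TGF-beta) were examined in C2C12 myotubes in which the microRNA miR-382 had been silenced. Of 9 listed receptor genes, 8 had a probe set that names a single gene, out of 18820 genes with such a probe set. These 8 were the type I receptors Acvr1, Acvr1b, Tgfbr1 and Bmpr1a, the type II receptors Acvr2a, Acvr2b and Bmpr2, and the type III receptor Tgfbr3. The type II receptor Tgfbr2 lies only on a probe set of several genes and is not analysed here. The genes were chosen by symbol, and each gene's probe set was selected on the highest mean level over all 6 arrays, silenced and control together. Each of the 8 had 1 such probe set, so that step left nothing to choose.

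Gene expression was measured on 6 Affymetrix arrays, 3 from silenced and 3 from control cells. C2C12 cells are immortalized myoblasts of the mouse that fuse into myotubes in low serum. Silenced cells were given a miR-382-5p silencer and control cells negative control A. Both were locked nucleic acid (LNA) inhibitors at a final 50 nM, delivered by lipofectamine RNAimax to myotubes kept in horse serum medium until day 6, and both groups were collected on day 7, which was 24 h after transfection. The data thus describe 1 cell line at 1 dose and 1 time. Nothing states that replicates were grown as separate cultures, and the p-values reflect only how these arrays vary, part of which may be technical.

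Ligands of this family bind a complex of type I and type II receptors, both of which are serine/threonine kinases. The constitutively active type II receptor phosphorylates the type I receptor, which then phosphorylates SMAD transcription factors. Activin, myostatin and TGF-beta signal mainly through the type I receptors ACVR1B (ALK4) and TGFBR1 (ALK5) to SMAD2 and SMAD3. BMPs signal mainly through ACVR1 (ALK2) and BMPR1A (ALK3) to SMAD1, SMAD5 and SMAD9. In skeletal muscle, myostatin restrains growth through activin type II receptors, while BMP signalling favours muscle mass. BMP2 diverts C2C12 myoblasts from the myogenic to the osteoblast lineage.

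The silenced microRNA is shown first, because its seed is the part that pairs with target transcripts. The RefSeq entry (GRCm38.p6) places miR-382-5p at chr12:109733781-109733802 and its partner strand miR-382-3p at chr12:109733819-109733840, both on the plus strand. Capitals mark the seed, bases 2 to 8 from the 5′ end.
miR-382-5p: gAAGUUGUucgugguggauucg
miR-382-3p: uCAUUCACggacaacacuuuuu
No other of the 1738 mature mouse microRNAs in the RefSeq table carries the seed of miR-382-5p. Receptor transcript sequences were not used here, so matches to the seed in the receptors were not counted.

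No receptor passed the test. In limma, with p-values adjusted over all 11292 tested genes, 0 of the 8 receptors had an adjusted p under 0.05, and the share of all tested genes that passed was 0%. At an unadjusted p under 0.05 there were 3 receptors, Acvr1b and Bmpr2 with a higher and Bmpr1a with a lower mean in silenced cells. The share of all tested genes at that unadjusted level was 4.8%, with 2.83% higher and 1.97% lower in silenced cells. Silenced and control arrays did not overlap for 4 receptors, the same 3 and Tgfbr1, beside 11.8% of all tested genes. The receptors were proposed for description with earlier results of these data known, so their shares are a description and not evidence about the family. In these bulk samples, fewer cells that express a gene and less of its RNA per cell cannot be told apart.

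**Figure D1:**
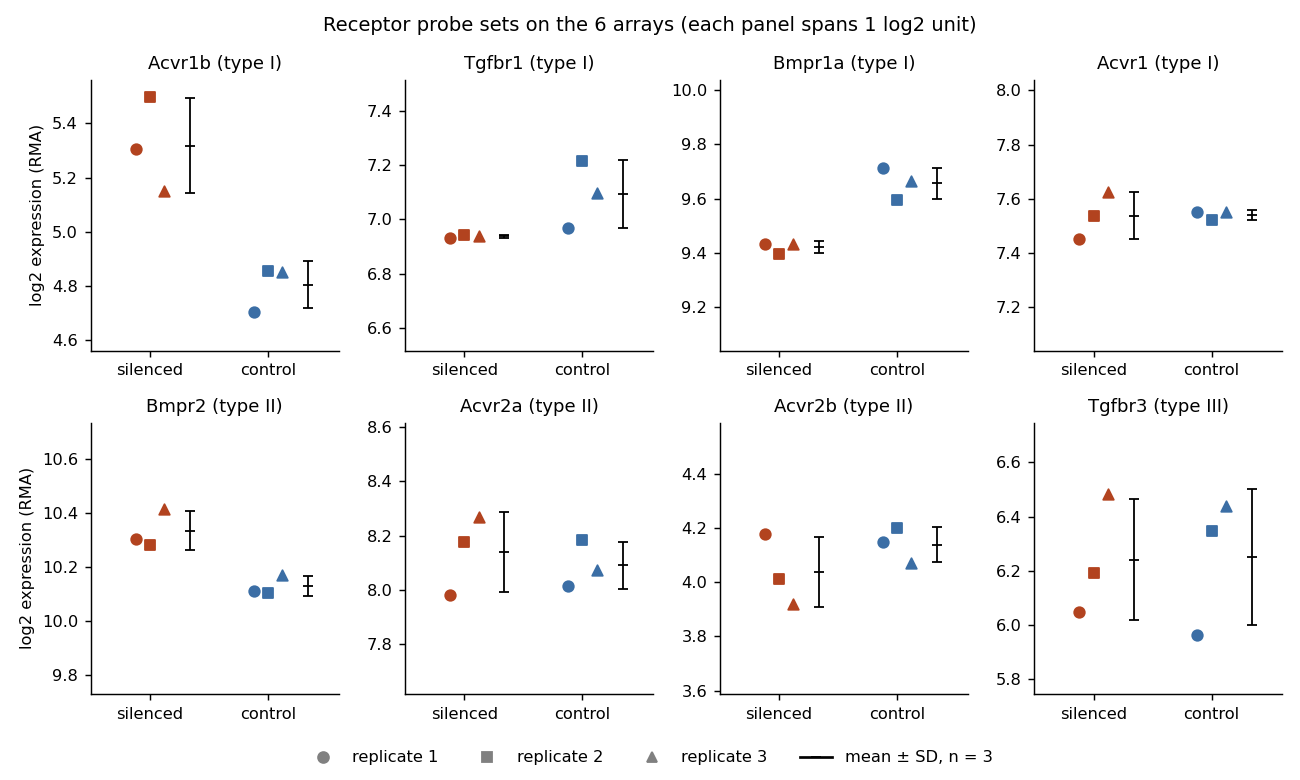
Log2 expression (vertical axis, RMA values, 1 log2 unit per panel) of the 8 receptor probe sets in silenced (left) and control (right) cells. Symbols are replicate numbers and black bars the mean ± SD of 3 arrays; Acvr1b and Bmpr2 lie higher, and Tgfbr1 and Bmpr1a lower, in all 3 silenced arrays than in any control array, while the other 4 overlap.

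Acvr1b, the type I receptor for activin and myostatin, had the largest difference of the 8 receptors. Its log2 levels were 5.31, 5.50 and 5.15 in silenced replicates 1, 2 and 3, against 4.70, 4.86 and 4.85 in control replicates 1, 2 and 3. All 3 silenced arrays were above all 3 controls, with a gap of 0.29 log2 between the nearest arrays of each group. The mean was 5.32 ± 0.17 in silenced and 4.80 ± 0.09 in control cells (SD, n = 3 each), a difference of 0.51 ± 0.11 log2 (SE). This is 1.43-fold higher in silenced cells, with a 95% confidence interval of 1.20-fold to 1.70-fold (limma, adjusted p = 0.871 over all tested genes). Of all tested genes, 0.195% differed by at least as much in either direction. Within replicate numbers 1, 2 and 3 the difference was 0.60, 0.64 and 0.30 log2. The gene lies at chr15:101174072-101213684 (GRCm38.p6). Its probe set is dim, with every array between the 40th percentile of gene means (3.87) and the 60th (6.31).

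Tgfbr1, the type I receptor for TGF-beta, feeds the same SMADs as Acvr1b and differed in the other direction. Its log2 levels were 6.93, 6.94 and 6.94 in silenced replicates 1 to 3, against 6.97, 7.22 and 7.10 in control replicates 1 to 3. The silenced arrays were tightly grouped and lay below the controls, but the nearest arrays were only 0.024 log2 apart. The difference was -0.16 ± 0.09 log2 (SE), with a 95% confidence interval of -0.36 to 0.05 (limma, adjusted p = 0.871). Within replicate numbers it was -0.04, -0.27 and -0.16, so replicate number 1 contributed little. Of all tested genes, 23.7% differed by at least as much.

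Bmpr1a, a type I receptor for BMPs, was lower in silenced cells. Its log2 levels were 9.43, 9.40 and 9.43 in silenced replicates 1 to 3, against 9.71, 9.60 and 9.66 in control replicates 1 to 3. The groups did not overlap, and the nearest arrays were 0.16 log2 apart. The mean was 9.42 ± 0.02 in silenced and 9.66 ± 0.06 in control cells (SD, n = 3 each), a difference of -0.24 ± 0.07 log2 (SE). This is 1.18-fold lower in silenced cells (limma, adjusted p = 0.871, 95% confidence interval of the difference -0.41 to -0.06 log2). The difference was -0.28, -0.20 and -0.23 within replicate numbers 1, 2 and 3, with an SD of 0.04 between numbers. Of all tested genes, 8.15% differed by at least as much. The gene lies at chr14:34411061-34503336.

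Acvr1, the other type I receptor of the BMP branch, read 7.45, 7.54 and 7.62 in silenced replicates 1 to 3, against 7.55, 7.52 and 7.55 in control replicates 1 to 3. The silenced arrays lay on both sides of the controls. The difference was -0.0049 ± 0.0798 log2 (SE), with a 95% confidence interval of -0.19 to 0.18 (limma, adjusted p = 0.995).

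Among the type II receptors, Bmpr2, which binds BMPs, was the only 1 of the 3 measured whose groups did not overlap. Its log2 levels were 10.30, 10.28 and 10.41 in silenced replicates 1 to 3, against 10.11, 10.11 and 10.17 in control replicates 1 to 3. All silenced arrays were above all controls, by at least 0.11 log2. The mean was 10.33 ± 0.07 in silenced and 10.13 ± 0.04 in control cells (SD, n = 3 each), a difference of 0.21 ± 0.08 log2 (SE). This is 1.15-fold higher in silenced cells, with a 95% confidence interval of 1.02-fold to 1.31-fold (limma, adjusted p = 0.871). Within replicate numbers 1, 2 and 3 it was 0.19, 0.18 and 0.24 log2, an SD of 0.03. Of all tested genes, 12.5% differed by at least as much. The gene lies at chr1:59764279-59878081.

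Acvr2a and Acvr2b, the activin and myostatin type II receptors, showed no separation. Acvr2a read 7.98, 8.17 and 8.27 in silenced replicates 1 to 3, against 8.02, 8.18 and 8.07 in control replicates 1 to 3. Its difference was 0.05 ± 0.10 log2 (SE), with an interval of -0.19 to 0.29 (limma, adjusted p = 0.951), and only replicate number 3 was clearly above 0, at 0.20. Acvr2b read 4.18, 4.01 and 3.92 in silenced replicates 1 to 3, against 4.15, 4.20 and 4.07 in control replicates 1 to 3. Its difference was -0.10 ± 0.09 log2 (SE), with an interval of -0.32 to 0.12 (limma, adjusted p = 0.885). Its arrays lay just above the filter level of 3.87.

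Tgfbr3 encodes betaglycan, a coreceptor that presents TGF-beta to its type II receptor and binds inhibin. It read 6.05, 6.19 and 6.49 in silenced replicates 1 to 3, against 5.96, 6.35 and 6.44 in control replicates 1 to 3. The groups overlapped almost fully, and same-numbered arrays read alike. The difference was -0.0085 ± 0.1596 log2 (SE), with an interval of -0.38 to 0.37 (limma, adjusted p = 0.996). Blocking on replicate number narrowed the interval to -0.21 to 0.19.

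Type I and type II receptors were then set side by side through their differences, since levels of separate probe sets cannot be compared. The type I differences had a median of -0.081 log2 over 4 genes, 1 with a higher and 3 with a lower mean in silenced cells. The type II differences had a median of 0.050 over 3 genes, 2 with a higher and 1 with a lower mean. The median over all tested genes was 0.0089, with 52.7% higher and 47.3% lower in silenced cells. The median and the mean of the type I receptors differ in sign: their mean difference was 0.03, because Acvr1b outweighed the other 3. Without Acvr1b, chosen for omission after its value was seen, the type I median was -0.16, and 3 of 3 were lower. Without Bmpr2, likewise omitted after its value was seen, the type II median was -0.026, with 1 higher and 1 lower. The medians cover the listed genes only and depend on which were listed. Bmpr1b, a BMP type I receptor outside the list, was tested and differed by 0.06 ± 0.11 log2 (SE). The further type I receptors Acvr1c and Acvrl1 were below the filter, with mean differences of 0.22 and -0.06. So was the type II receptor Amhr2, at -0.04. Medians that include these genes were not computed.

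By medians, type I minus type II was -0.13 log2, and within replicate numbers 1, 2 and 3 it was -0.10, -0.08 and -0.24. Above the 60th percentile of gene means, where Acvr1b and Acvr2b are not tested, it was -0.28 over 3 type I and 2 type II genes. By means it was only -0.02, and within replicate numbers 1, 2 and 3 it was -0.02, 0.05 and -0.10, so the sign was not constant. Per array, the mean of the type I genes minus that of the type II genes, each gene centred on its mean over the 6 arrays, was -0.02, 0.04 and -0.06 in silenced replicates 1 to 3, against -0.0012, -0.0096 and 0.0435 in control replicates 1 to 3. The groups overlapped, so the receptor types did not separate as blocks. The range of differences was wider within type I (0.75 log2) than within type II (0.31 log2).

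**Figure D2:**
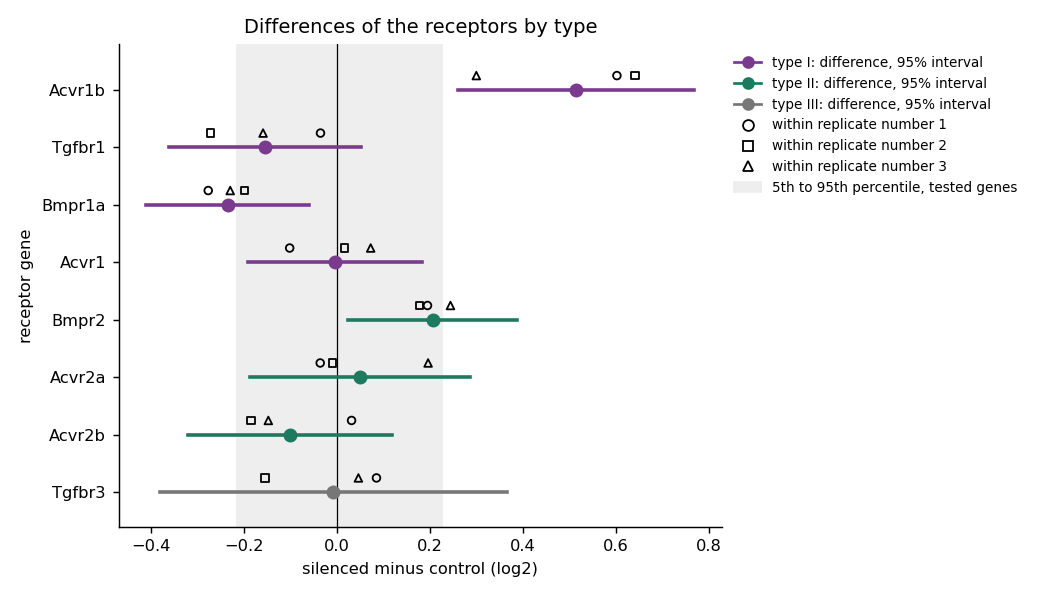
Difference between silenced and control cells (horizontal axis, log2, silenced minus control) for each receptor, with limma's 95% confidence interval as a bar and the difference within each replicate number as an open symbol. Acvr1b lies beyond the 5th to 95th percentile of all tested genes (grey, -0.22 to 0.23), Bmpr1a just beyond it on the lower side, and the other 6 inside.

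**Figure D3:**
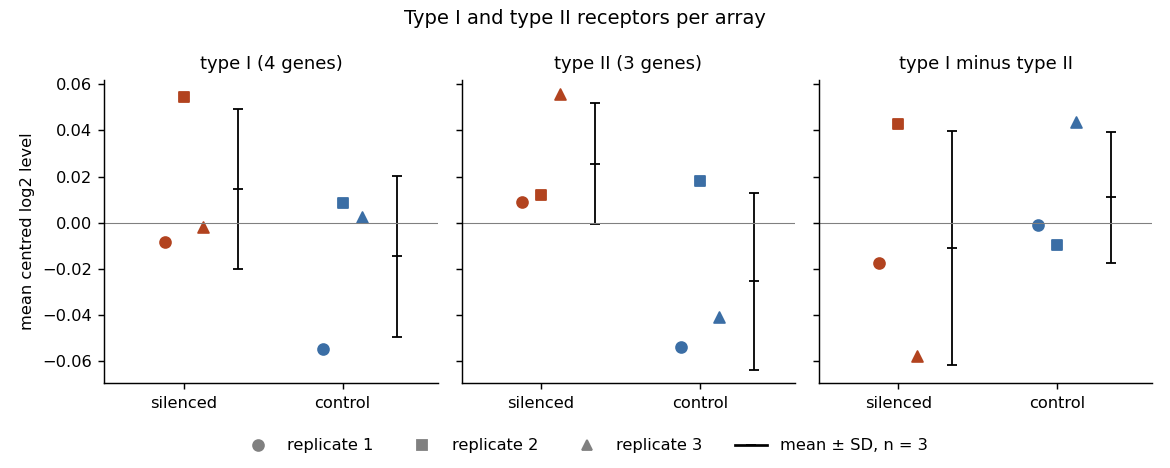
Mean centred log2 level per array (vertical axis) of the 4 type I receptors, the 3 type II receptors, and type I minus type II, in silenced (left) and control (right) cells, with mean ± SD of 3 arrays. Silenced and control arrays overlap in all 3 panels.

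Some pairs of receptors differed in opposite directions. Acvr1b minus Tgfbr1, each centred on its mean over the 6 arrays, was 0.33, 0.51 and 0.17 in silenced replicates 1 to 3, against -0.31, -0.40 and -0.29 in control replicates 1 to 3. The mean of this difference between the 2 probe sets was 0.67 log2 higher in silenced cells. Bmpr2 minus Bmpr1a, the type II and type I BMP receptors, was 0.18, 0.19 and 0.29 in silenced replicates 1 to 3, against -0.29, -0.18 and -0.19 in control replicates 1 to 3. Its mean was 0.44 log2 higher in silenced cells, and it was 0.47, 0.38 and 0.47 higher within replicate numbers 1, 2 and 3. Both pairs were picked after the differences were seen and carry no test.

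The genes with the most similar pattern over the 6 arrays were found by the root mean square distance between mean-centred log2 values. For Acvr1b they were Lrrc3 at a distance of 0.083 log2, Lin37, a subunit of the DREAM cell cycle repressor complex, at 0.11, and the glycosyltransferase gene B4galnt3 at 0.11. For Bmpr2 they were the kinesin gene Kif13a at 0.021, Ap3d1, a subunit of the AP-3 vesicle adaptor, at 0.023, and Myorg at 0.024. Lin37, for example, read 8.33, 8.42 and 8.38 in silenced replicates 1 to 3, against 7.89, 7.88 and 7.97 in control replicates 1 to 3. The distances describe 6 arrays that share their normalization and carry no test.

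The promoters of the 3 receptors with an unadjusted p under 0.05 are shown because Acvr1b and Bmpr2 differed one way and Bmpr1a the other. Each window holds 250 bases before and 50 bases after a start in the RefSeq table, 5′ to 3′ on the gene's strand, from RefSeq (GRCm38.p6). Acvr1b lies on the plus strand at chr15:101173822-101174121, Bmpr2 on the plus strand at chr1:59764029-59764328 and Bmpr1a on the minus strand at chr14:34502497-34502796. The RefSeq starts used for the Acvr1b and Bmpr2 windows coincide with the gene's annotated 5′ end. The start used for Bmpr1a lies 790 bases inside the gene, so its window is not at the outermost start. Capitals mark GC boxes (GGGCGG or, on the other strand, CCGCCC).
Acvr1b: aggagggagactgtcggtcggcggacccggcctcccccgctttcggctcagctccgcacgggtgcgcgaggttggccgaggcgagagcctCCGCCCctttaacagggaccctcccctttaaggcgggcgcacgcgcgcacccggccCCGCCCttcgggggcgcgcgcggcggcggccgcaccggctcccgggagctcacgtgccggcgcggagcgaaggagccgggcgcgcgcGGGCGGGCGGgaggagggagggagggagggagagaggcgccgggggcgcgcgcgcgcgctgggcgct
Bmpr2: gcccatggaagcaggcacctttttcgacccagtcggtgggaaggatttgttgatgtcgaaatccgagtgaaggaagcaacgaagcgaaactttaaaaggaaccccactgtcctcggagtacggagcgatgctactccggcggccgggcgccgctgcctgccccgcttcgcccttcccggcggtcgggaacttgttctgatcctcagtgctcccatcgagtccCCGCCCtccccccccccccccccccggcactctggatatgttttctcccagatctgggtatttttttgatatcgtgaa
Bmpr1a: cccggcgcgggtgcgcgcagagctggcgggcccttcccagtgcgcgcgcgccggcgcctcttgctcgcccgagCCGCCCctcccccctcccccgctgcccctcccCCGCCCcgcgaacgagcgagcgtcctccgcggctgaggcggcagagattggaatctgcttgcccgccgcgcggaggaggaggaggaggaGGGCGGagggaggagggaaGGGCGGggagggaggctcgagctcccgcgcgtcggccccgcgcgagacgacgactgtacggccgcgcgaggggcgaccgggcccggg

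The windows of Acvr1b and Bmpr1a are alike in composition, and a link between composition and direction was not tested. The GC content of Acvr1b and Bmpr1a was 79.7% and 79.3%, with 51 and 48 CpG dinucleotides and 4 GC boxes each. This composition was not particular to them. Among receptors whose groups overlapped, GC content was 83.7% for Acvr1, 80.3% for Acvr2a and 73.3% for Acvr2b. These windows had 51, 54 and 27 CpG dinucleotides. The window of Bmpr2 was less extreme, with 59.3% GC, 23 CpG dinucleotides and 1 GC box. The medians over all windows were 52.7% GC and 7 CpG dinucleotides. Of the 8 receptors, 7 had a window in the table, and each of those 7 had at least 1 window with a GC box. A further window of Tgfbr1 had 0 GC boxes. Counted by window and not by gene, 35.7% of all 32851 windows had a GC box. The E-box CANNTG, which reads the same on both strands and is bound by myogenic factors among others, occurred once in the window of Acvr1b and not in those of Bmpr2 and Bmpr1a, against 72.3% of all windows. The SMAD box CAGAC, which was searched on both strands, occurred in none of these 3 windows and in 49.6% of all. Among receptors whose groups overlapped, the windows of Acvr1, Acvr2a and Acvr2b had 0 E-boxes. A SMAD box occurred once in the window of Acvr2a and once in that of Acvr2b, and not in that of Acvr1. Matches of the same motif or of separate motifs may share bases. The GC boxes in the last capital stretch of Acvr1b overlap and were counted separately. A match describes the sequence only.

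The rest of the pathway was described with lists of ligands, antagonists, further receptors and coreceptors, SMADs, regulators, SMAD-independent signalling genes and target genes. The lists held 139 genes in all without the 9 listed receptors. Of these, 95 were tested, and 0 passed limma after adjustment over all tested genes. At an unadjusted p under 0.05 there were 3 higher and 1 lower in silenced cells, a share near the 4.8% of all tested genes. With replicate number as a block there were 10, beside 10.3% of all tested genes, as Rgma, Tgfb3, Smad3, Ctdsp1, Pmepa1 and Hey1 joined the other 4, and again 0 passed after adjustment. The groups did not overlap for 10 genes that were higher and 3 that were lower in silenced cells, where 6.94% and 4.87% of all tested genes did not. By mean, 63 were higher and 32 lower in silenced cells, with a median of 0.042 log2 beside 0.0089 for all tested genes.

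Among activin, myostatin and TGF-beta ligands, 7 of 14 with a value were tested. Tgfb2 read 9.07, 9.21 and 9.02 in silenced replicates 1 to 3, against 8.84, 9.01 and 8.74 in control replicates 1 to 3, a difference of 0.24 ± 0.10 log2 (SE). Tgfb3 differed by 0.21 ± 0.11 and Tgfb1 by 0.11 ± 0.10 (SE), so the means of all 3 TGF-beta genes were higher in silenced cells and none passed (limma, adjusted p from 0.871 to 0.885). Inhba, the activin A subunit, differed by 0.011 ± 0.071 (SE) and Gdf11, a close relative of myostatin, by 0.015 ± 0.113 (SE). Mstn, the myostatin gene itself, lay below the filter, at 2.63 ± 0.13 in silenced and 2.65 ± 0.16 in control cells (SD, n = 3 each).

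BMP ligand genes were mostly dim: 3 of 17 were tested. Bmp4 differed by 0.13 ± 0.11 log2 (SE) and Gdf7 by -0.19 ± 0.15 (SE), with adjusted p = 0.878 for both in limma. Of 20 antagonist and latency genes with a value, 14 were tested. Nbl1, which encodes a secreted BMP antagonist, read 7.73, 7.95 and 7.74 in silenced replicates 1 to 3, against 7.57, 7.64 and 7.44 in control replicates 1 to 3. Nog, the BMP antagonist noggin, differed by 0.09 ± 0.17 (SE), and Wfikkn1, a myostatin-binding protein, by -0.12 ± 0.13 (SE). Among the 9 tested further receptors and coreceptors, Rgma, a BMP coreceptor, differed by 0.25 ± 0.15 (SE) and Neo1, the receptor of Rgma, by 0.11 ± 0.07 (SE).

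The SMAD genes include the substrates of the type I receptors. They had a median of 0.062 log2 over 7 tested genes, 5 with a higher and 2 with a lower mean in silenced cells. Smad3 read 8.74, 9.01 and 8.99 in silenced replicates 1 to 3, against 8.50, 8.86 and 8.60 in control replicates 1 to 3, a difference of 0.26 ± 0.12 (SE). It was higher within every replicate number, although the groups overlapped (limma, adjusted p = 0.871). Smad2 differed by -0.01 ± 0.13, Smad4, the common partner, by 0.07 ± 0.08, Smad1 by -0.04 ± 0.11 and Smad5 by 0.06 ± 0.07 (SE). The inhibitory SMAD gene Smad7 differed by 0.07 ± 0.17 (SE).

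Among 28 tested regulators of SMADs and receptors, Tgfbrap1, whose product binds TGF-beta receptors, differed by 0.27 ± 0.10 log2 and Ctdsp1, a phosphatase of SMAD linkers, by 0.18 ± 0.08 (SE). The 12 SMAD-independent signalling genes had a median of 0.0027, with Xiap, an adaptor of the TAK1 kinase, at -0.17 ± 0.09 and Tab1, a TAK1 activator, at 0.08 ± 0.08 (SE). Activin and TGF-beta target genes had a median of 0.064 over 15 tested genes, 12 with a higher mean, and none was at an unadjusted p under 0.05 without the block. The feedback inhibitors Pmepa1 and Ldlrad4 differed by 0.21 ± 0.13 and 0.14 ± 0.11 (SE), and blocking gave Pmepa1 an SE of 0.08 (limma, unadjusted p = 0.0386, adjusted p = 0.471). BMP target genes had a median of 0.042 over 11 tested genes. Id3, a BMP-induced inhibitor of myogenic factors, read 4.85, 4.67 and 4.68 in silenced replicates 1 to 3, against 4.98, 5.06 and 4.91 in control replicates 1 to 3, a difference of -0.25 ± 0.09 (SE, limma, adjusted p = 0.871). Id1, of the same family, differed by 0.011 ± 0.097 (SE), and the BMP target Hey1 by 0.27 ± 0.24 (SE). Hey1 varied together in same-numbered arrays, and blocking gave it an SE of 0.08 (limma, unadjusted p = 0.0111, adjusted p = 0.464).

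**Figure D4:**
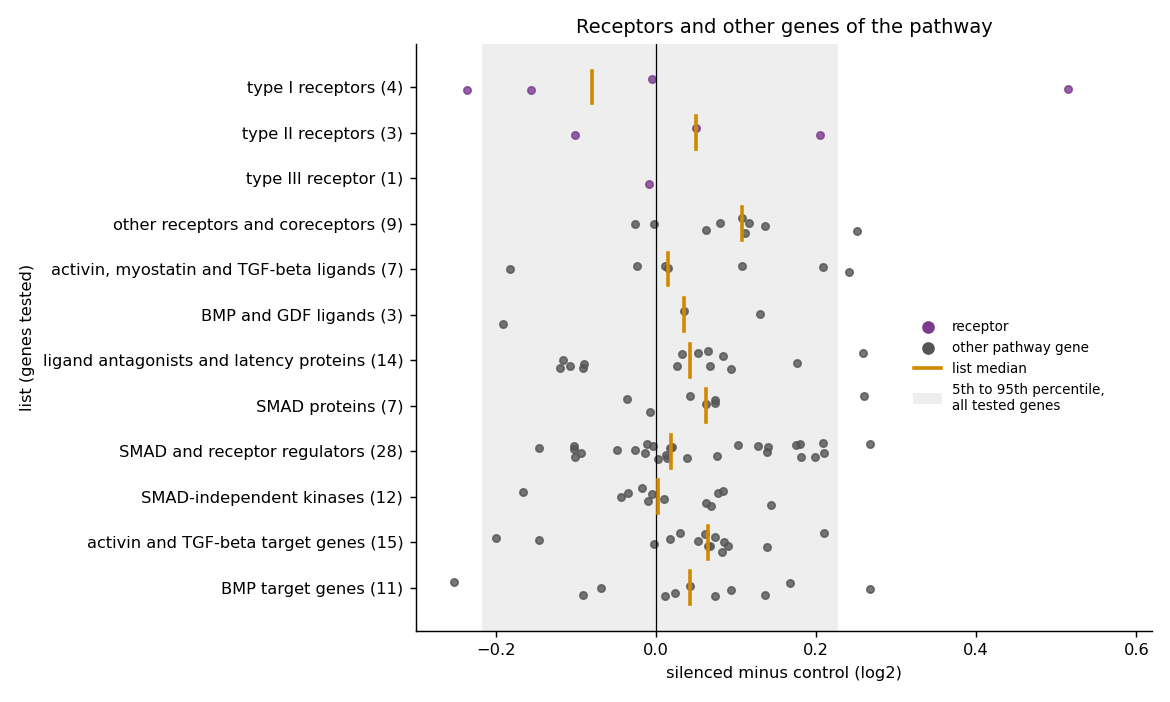
Difference between silenced and control cells (horizontal axis, log2, silenced minus control) of every tested gene in the receptor lists and the other pathway lists, with the number tested in brackets and list medians as bars. Acvr1b, at 0.51, lies beyond every other gene of the pathway, whose differences span -0.25 to 0.27.

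The labelled cell state was checked against its markers. All 15 myotube markers exceeded the filter level. Of these, 13 had a higher mean in silenced cells, as had 52.7% of all tested genes, and none passed limma (smallest adjusted p = 0.871). Their median difference was 0.15 log2, beside 0.0089 for all tested genes. At an unadjusted p under 0.05 in limma 4 were higher and 0 lower, beside 2.83% and 1.97% of all tested genes. The groups did not overlap for 5 that were higher and 1 that was lower, beside 6.94% and 4.87% of all tested genes. The list's mean log2 level overlapped between the groups, and ranged from 10.78 to 11.02 in silenced and from 10.66 to 10.79 in control cells. The part of these markers in the receptor differences was not tested. Of 9 markers of undifferentiated myoblasts, 8 exceeded the filter, 4 with a higher and 4 with a lower mean in silenced cells, with mean levels of 8.07 to 8.16 in silenced and 8.05 to 8.15 in control cells. For fibroblasts it was 6 of 8 markers, 2 with a higher and 4 with a lower mean in silenced cells and a median difference of -0.10 log2 (range -0.60 to 0.12), and none passed limma (smallest adjusted p = 0.871). Their mean levels were 7.65 to 8.19 in silenced and 7.68 to 8.34 in control cells, and Thy1 was below the filter. Of 8 osteoblast and chondrocyte markers with a value 3 exceeded the filter, 2 with a higher and 1 with a lower mean in silenced cells, with 5.53 to 5.59 in silenced and 5.32 to 5.86 in control cells, while Sp7, Ibsp and Alpl were below it. For adipocytes it was 2 of 7, 1 higher and 1 lower, with 5.50 to 6.00 in silenced and 5.70 to 5.81 in control cells, and Adipoq, Plin1 and Fabp4 were below it. Both arrays numbered 1 stood apart from the other 4 on the leading principal component (46.8% of the variance). Without those 2 arrays Acvr1b differed by 0.47, Bmpr1a by -0.21, Bmpr2 by 0.21 and Tgfbr1 by -0.22 log2, an alternative added after the data were seen.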

How the data were processed

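The deposited table holds log2 expression values of 35556 probe sets, which the authors made; the submitters' processing notes name RMA. The software version is not given in the sources used here. As generally described, RMA models background, equalizes the arrays' distributions and summarizes probes on the log2 scale. The array medians lay between 4.21 and 4.27. Precision is limited by the number of arrays. No scanner file or detection call was used.

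Gene names came from the platform's annotation table: 21218 name 1 gene, 1881 several, and 12457 are unnamed here. Of the single-gene ones 21185 matched RefSeq GRCm38.p6 by Entrez identifier. Per gene the probe set with the highest mean was kept, and the 11292 genes with a mean above the 40th percentile (3.87) were tested with limma 3.58.1 in R 4.3.3 (lmFit, eBayes, 2-sided, no covariate, Benjamini-Hochberg adjustment), all 6 arrays in 1 fit. Differences are silenced minus control and SEs are moderated. The procedure was tested on simulated data, with shifts larger than any receptor difference here and without pairing of the arrays. Recovery of differences of the reported size was not tested.

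Deviations from the group means correlated at 0.55, 0.35 and 0.42 between same-numbered arrays, and every array correlated best with its own number. The numbers therefore appear to pair the arrays; this rests on the values, since no label states a shared culture or day. The reported SEs, intervals and p-values come from the fit without pairing unless a block is named, and the blocked fit is an alternative. Named genes are the receptors, the 2 smallest p per pathway list, a panel, and the 3 nearest patterns of 1 receptor per type; 2 panel genes are not analysed here. Members and lists were chosen with earlier results of these data known. Alternatives changed the normalization, filter, variance model, probe set rule, replicate block and the arrays used.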

Additional observations from a re-analysis of the deposited data

How the results depend on the processing

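In all 13 alternatives, 0 receptors, 0 other pathway genes and 0 genes in all passed limma's adjusted threshold (smallest adjusted p of a receptor 0.459). Acvr1b, Tgfbr1, Bmpr1a, Bmpr2 and Acvr2b kept their direction wherever they were tested, while Acvr1, Acvr2a and Tgfbr3 did not. The lowest and highest differences over the alternatives were 0.42 and 0.60 for Acvr1b, -0.27 and -0.21 for Bmpr1a, 0.16 and 0.23 for Bmpr2, and -0.22 and -0.10 for Tgfbr1. For Acvr1 they were -0.05 and 0.04, for Acvr2a -0.01 and 0.13, and for Tgfbr3 -0.15 and 0.09. The count of receptors at an unadjusted p under 0.05, 3 in all arrays, was 2 to 3 when 1 array was left out; Bmpr2 was the receptor lost, without silenced replicate 3 or control replicate 1, 2 or 3, while Tgfbr1 was gained without control replicate 1. It was 1, Acvr1b, without both arrays numbered 1, which leaves 4 arrays, and 2 above the 60th percentile, where Acvr1b, Acvr2b and Tgfbr3 are not tested. There the type I minus type II median was -0.28, with 3 type I and 2 type II genes; leaving out 1 array gave -0.19 to -0.09. With the replicate number as a block, limma's adjusted p was 0.464 for Acvr1b, Bmpr1a and Bmpr2; the block changed no call. At an unadjusted p under 0.05 it gave 1168 genes (10.3% of those tested), against 542 (4.8%) without a block, and 10 pathway genes against 4. Without any filter there were 834 genes, above the 60th percentile 441, and without both arrays numbered 1 there were 1160. When 1 array was left out, the count of all genes ran from 272, without control replicate 3, to 828, without control replicate 1. Without control replicate 3 there was 1 pathway gene. The receptor counts of 2 to 3 thus stood beside a changing share of all genes. Of 27 named pathway genes, 7 changed direction under some alternative. Dim probe sets (Acvr2b, Mstn, most BMP ligands) limit what could be detected.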

Other observations

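Among the 28 tested regulators of SMADs and receptors, the groups did not overlap for 7, of which 6 were higher and 1 lower in silenced cells, beside 6.94% and 4.87% of all tested genes. They are named after their values were seen, and none passed limma (smallest adjusted p = 0.871). Besides Tgfbrap1 and Ctdsp1, the higher ones were Ski, a SMAD corepressor, with a difference of 0.18 ± 0.09 log2, Tob1, an antiproliferative protein, with 0.18 ± 0.09, Nedd4l, a ubiquitin ligase, with 0.20 ± 0.12, and the phosphatase gene Ctdsp2 with 0.08 ± 0.07 (SE). The lower one was Usp15, a deubiquitinase, with -0.10 ± 0.08 (SE). Ski read 8.22, 8.06 and 8.15 in silenced replicates 1 to 3, against 8.02, 8.02 and 7.87 in control replicates 1 to 3. Nedd4l rested largely on silenced replicate 1, at 7.84, against 7.40 and 7.47 in silenced replicates 2 and 3 and 7.35 to 7.40 in control cells.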
